A study of Mus musculus with 6 samples.

Results

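The cytoplasmic ribosome is built from ribosomal RNA and a set of ribosomal proteins, each usually encoded by its own gene. Proteins named Rpl belong to the large subunit, which joins amino acids, and proteins named Rps to the small subunit, which reads the mRNA. Their genes are strongly transcribed in all growing cells, and in neurons the messages of several of them are also found in axons and growth cones. Many of these mRNAs begin with a C followed by a run of pyrimidines, the terminal oligopyrimidine tract, through which mTOR signaling controls their translation.

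The genes described here are those with a probe set whose annotation names exactly 1 symbol made of Rpl or Rps, an optional p, a number and at most 1 of the letters a, x, y and l. Kinases such as Rps6ka1 and pseudogenes were left out by this rule, and the probe set with the highest mean over the 6 arrays stood for each gene. The rule found 45 genes, 24 of the large and 21 of the small subunit, on 98 probe sets, among 18193 genes with a probe set of their own. A further 28 ribosomal protein symbols, among them Rpl5, Rpl23 and Rps13, occurred only on probe sets that name several genes and are treated separately.

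The samples were retinal ganglion cells (RGCs) of C57BL/6J mouse embryos at E16.5, the neurons whose axons leave the eye. The cells were labeled for 2 h with rhodamine dextran applied to the cut optic tract on 1 side of the brain, and rhodamine-positive, DAPI-negative cells were sorted from the retinas on the same side (ipsilateral) or the opposite side (contralateral). Each of 3 rounds gave 1 ipsilateral and 1 contralateral sample from pooled retinas of 2 litters, and the rounds were those with the strongest ipsilateral enrichment of Zic2 by qPCR. The labels name no allele and no drug beside the dye, and the groups differed by the side to which the labeled axons projected. They also differed by place: the authors found labeled ipsilateral cells in the ventrotemporal periphery of the retina and labeled contralateral cells outside it. Side and retinal region cannot be told apart in these samples. The authors also propose that ipsilateral RGCs are less mature. The ipsilateral sorts held far fewer cells, the starting RNA was matched within a round, and all cDNA was amplified before hybridization to Affymetrix mouse expression arrays.

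To show the start of the transcripts, 30 bases around an annotated start are printed for 8 genes on which the results below turn: 7 of the members that were higher on the ipsilateral side in every round, and Rps25, the member with the most negative difference on its own probe set. All come from RefSeq's mouse build GRCm38.p6, read 5′ to 3′ on the gene's own strand, with 10 bases before the start and 20 from it on. Capitals mark a run that begins with a C within 5 bases of the start and continues with at least 4 pyrimidines. Where a gene has several annotated starts, 1 with such a run is shown if there is any. Rps6, Rps18, Rplp2 and Rpl13a have such a run, at chr4:86857348-86857377 (minus strand), chr17:33955646-33955675 (minus strand), chr7:141447641-141447670 (plus strand) and chr7:45128726-45128755 (minus strand). In Rps3, Rpl22, Rpl10a and Rps25 no run begins within 5 bases of the start, although Rpl10a has one that begins farther upstream. Their windows lie at chr7:99483690-99483719 (minus strand), chr4:152325716-152325745 (plus strand), chr17:28328461-28328490 (plus strand) and chr9:44407704-44407733 (plus strand).
Rps6: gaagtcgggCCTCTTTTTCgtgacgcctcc
Rps18: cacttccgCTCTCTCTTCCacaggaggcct
Rplp2: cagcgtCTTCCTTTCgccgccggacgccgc
Rpl13a: cctgcgacaagaCCTCCTCCTTTCCCaggc
Rps3: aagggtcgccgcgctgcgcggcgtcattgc
Rpl22: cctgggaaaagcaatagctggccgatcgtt
Rpl10a: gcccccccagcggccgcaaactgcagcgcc
Rps25: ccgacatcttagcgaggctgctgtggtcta

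Of the 45 members, 39 have an entry in the promoter table. A C at the annotated start itself followed by at least 4 pyrimidines was found for 8 of the 39 (20.5%), against 3.01% of all 27025 genes in the table. With the run allowed to begin within 5 bases of the start, it was found for 19 members (48.7%) and 21.2% of all genes. Longer runs from farther upstream were counted where a C 5 bases before the start still had 4 pyrimidines after it. Rpl35 and Rpl7a are such cases. In the 300 bases around the start, read on both strands, the letters CCGGAAG occurred in 19 members (48.7%) and 9.93% of all genes, AAGATGG in 7 members (17.9%) and 7.28%, and TATAAA in 5 members (12.8%) and 15.7%. The letters CCGGAAG read on the other strand are themselves rich in pyrimidines and can overlap a run, and these 3 words were chosen after the sequences had been seen. A match is a description of the letters in the window.

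The labels were checked against markers of RGCs and of the ipsilateral route. Isl1, a transcription factor of differentiated RGCs, had log2 levels of 11.26, 11.23 and 11.34 on the ipsilateral arrays of rounds 1 to 3 and 11.44, 11.72 and 11.72 on the contralateral arrays. Zic2, the transcription factor that directs the ipsilateral route, had log2 levels of 8.53, 9.26 and 9.003 against 6.94, 6.32 and 6.03, with no overlap. It passed the test without the round as a block (limma adjusted p = 0.025) and not with it (adjusted p = 0.0739), and the rounds had been selected on this gene. Of other genes known from ipsilateral RGCs, the serotonin transporter Slc6a4 had differences of 2.76, 2.16 and 1.07 in rounds 1 to 3 (limma adjusted p = 0.736), and the guidance receptor Ephb1 had 0.37, -0.11 and -0.07. Array medians over all probe sets ranged from 5.80 to 6.70 and differed more between rounds than between sides.

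Most ribosomal protein genes had a probe set well above the dim end of the array. Of the 45 members, 42 lay at or above the level filter, a mean log2 level of 4.74, which is the 20th percentile of all probe sets. The 3 others were Rpl37, Rps16 and Rpl3l, with mean log2 levels of 3.80, 3.96 and 4.55 on probe sets of their own. Rpl3l encodes a paralog of Rpl3 found in muscle. Rpl37 and Rps16 encode core subunits, and bright probe sets name them together with other genes. The brightest had a mean level of 12.03 for Rpl37 and of 11.91 for Rps16. How much of that signal came from Rpl37 and Rps16 themselves was not tested, and the low values describe the probe sets of their own. On their own probe sets the mean difference, ipsilateral minus contralateral, was 0.02 on the log2 scale for Rpl37, -0.13 for Rps16 and 0.13 for Rpl3l, and on the brightest shared probe set it was 0.11 for Rpl37 and 0.22 for Rps16. The counts below cover the 42 members that passed the filter, which uses the mean over all arrays and not the side.

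The median log2 level of the 42 members was 11.39, 11.58 and 11.78 on the ipsilateral arrays of rounds 1, 2 and 3. On the contralateral arrays it was 10.98, 11.46 and 11.54. The ipsilateral array thus held the higher median in each round, while the sides overlapped across rounds. The first contralateral array stood lowest: for 33 of the 42 members it had the lowest of the 6 values, and the third ipsilateral array had the highest value for 29.

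**Figure D1:**
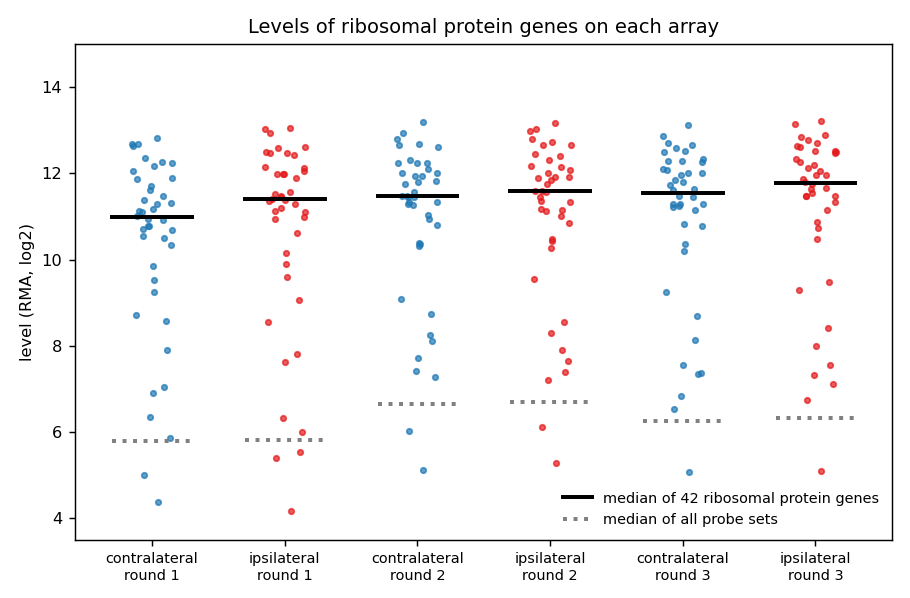
Log2 level (vertical axis, RMA values) of the 42 ribosomal protein genes above the filter on each of the 6 arrays, ordered by round; each point is 1 gene, the black line is the median of the members and the dotted line is the median of all probe sets on that array. The black line lies higher on the ipsilateral array in each round and lowest on the contralateral array of round 1, at 10.98.

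Within rounds, the ribosomal protein genes were measured slightly higher in ipsilateral RGCs. The median log2 difference over the 42 members came to 0.35, 0.07 and 0.22 for rounds 1, 2 and 3, and the median of their mean differences was 0.19. Round 2 gave the lowest of the 3 differences for 32 members, and round 1 the highest for 28. The middle of the distribution was narrow, with quartiles of 0.12 and 0.26. The mean difference was above 0 for 40 members, against 47.5% of the 15346 genes tested. It was positive in all 3 rounds for 25 members, against 17.6% of all genes. No member was higher on the contralateral side in all 3 rounds, against 20.2% of all genes. In sorted bulk samples, fewer cells of a type and less of an RNA per cell cannot be told apart.

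None of these differences passed the test gene by gene. A call required a difference of at least 2-fold and an adjusted p under 0.05 in limma, and it was met by 0 members in either direction, against 0.358% of all genes called higher in ipsilateral and 0 genes called higher in contralateral RGCs. At an unadjusted p under 0.05, limma without a block gave 0 members in either direction, against 2.74% of all genes higher in ipsilateral and 0.3% higher in contralateral RGCs. With the round as a block, 2 members, Rps6 and Rps3, had an unadjusted p under 0.05 and were higher in ipsilateral RGCs, against 7.91% of all genes, and none in the other direction, against 6.63%. The lowest adjusted p over the members was 0.99996 without the block and 0.206 with it. The median standard error of a member's difference was 0.40 without the block and 0.15 with it, so a typical difference of 0.19 was smaller than the first and near the second.

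For 0 members was the mean difference 2-fold or more, against 2.75% of all genes toward the ipsilateral and 0.222% toward the contralateral side. At 1.5-fold, Rps6 was past it toward the ipsilateral side, where 6.28% of all genes were, and Rps25 toward the contralateral side, where 3.36% were. The 3 ipsilateral values lay above all 3 contralateral values for 5 members, Rpl10a, Rpl13a, Rpl22, Rpl27 and Rps3, against 3.84% of all genes. They lay below for 0 members, against 1.98% of all genes. An exact permutation test with 3 arrays against 3 cannot give a two-sided p below 0.10.

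Leaving out a single array moved the median of 0.19 most when it was the first contralateral array. It was 0.04 without that array, 0.07 without the third ipsilateral array and 0.31 without the first ipsilateral array. These fits have no block and keep the other array of the round unpaired, so levels that differ between rounds enter the difference. Leaving out whole rounds, which keeps the pairs, gave a median between 0.14 and 0.26.

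**Figure D2:**
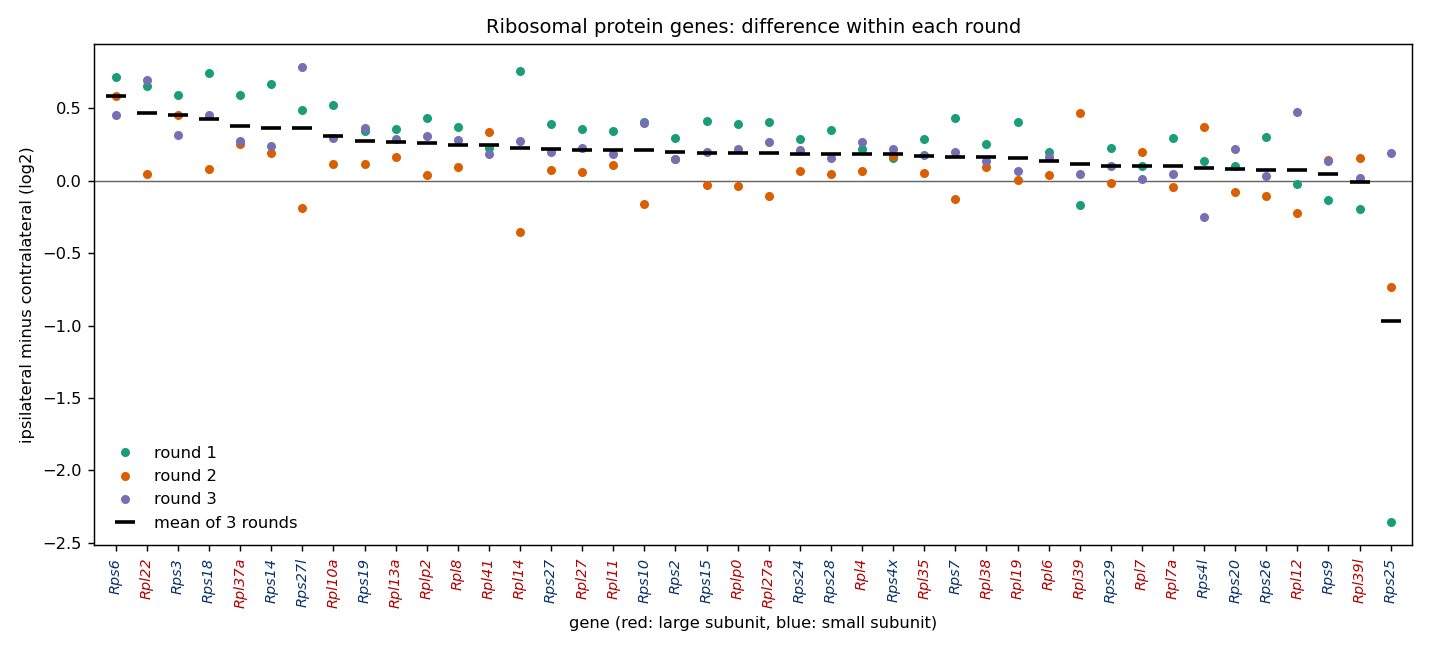
Difference, ipsilateral minus contralateral (vertical axis, log2), of each of the 42 ribosomal protein genes within round 1, 2 and 3 (colored points), with the mean of the rounds as a black bar; genes are ordered by that mean and named in red for the large and blue for the small subunit. Most points lie between 0 and 0.5, the point of round 2 is the lowest for 32 genes, and Rps25 stands apart at the right with -2.36 in round 1.

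The medians of the subunits lay close together, and their difference was not tested. For the large subunit the median log2 difference over 22 genes was 0.19, and 15 of them were higher on the ipsilateral side in all 3 rounds. For the small subunit it was 0.19 over 20 genes, of which 10 were higher in all 3 rounds. The medians by round were 0.35, 0.06 and 0.22 for the large and 0.35, 0.07 and 0.21 for the small subunit. Without the first contralateral array, which leaves the first ipsilateral array unpaired, the subunit medians were 0.02 and 0.04.

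Among the small subunit members, Rps6 had the highest positive difference on a probe set of its own. It encodes the substrate of the S6 kinases, whose phosphorylation is a common readout of mTOR signaling. Its log2 levels were 7.63, 8.29 and 8.002 on the ipsilateral and 6.91, 7.71 and 7.55 on the contralateral arrays of rounds 1 to 3. The ipsilateral array was higher in every round, by 0.72, 0.58 and 0.46, while the sides overlapped across rounds. The mean log2 difference of 0.59 had a standard error of 0.41 (limma adjusted p = 0.99996), and with the round as a block a standard error of 0.14 (unadjusted p = 0.0081, adjusted p = 0.206 in limma). This value is from a probe set of moderate level, and a dimmer probe set of Rps6, with a mean log2 level of 5.18, gave a mean difference of -0.15. Brighter probe sets name Rps6 together with its pseudogene Rps6-ps4, and the brightest of these, with a mean log2 level of 12.73, had differences of 0.36, 0.18 and 0.20 and a mean of 0.25, closer to the median of the members.

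Rps3, a small subunit protein near the entry of the mRNA, was the other member with an unadjusted p under 0.05 in the blocked fit. Its log2 levels were 12.46, 12.45 and 12.61 on the ipsilateral and 11.87, 12.002 and 12.29 on the contralateral arrays. The sides did not overlap. The differences within rounds were 0.59, 0.45 and 0.32, with a mean of 0.45, a standard error of 0.38 (limma adjusted p = 0.99996) and, with the block, of 0.15 (unadjusted p = 0.023, adjusted p = 0.278 in limma). A dimmer probe set of Rps3, with a mean log2 level of 9.17, had differences of 0.29, 0.15 and -0.37 and a mean of 0.02.

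Rps18, Rps14 and Rps19 followed, all higher on the ipsilateral side in each round on the brightest probe set of their own. Rps18 had differences of 0.74, 0.08 and 0.45 in rounds 1, 2 and 3, so that its mean of 0.43 came mostly from rounds 1 and 3. Its next brightest probe set, with a mean log2 level of 11.51, had differences of 0.48, -0.04 and 0.38. Rps14, the gene lost in the 5q- syndrome of the bone marrow, had differences of 0.67, 0.19 and 0.24. Rps19, the gene most often mutated in Diamond-Blackfan anemia, had log2 levels of 9.59, 10.49 and 10.72 against 9.24, 10.37 and 10.35. Its ipsilateral and contralateral values overlapped, since the levels of both sides were lowest in round 1. Its differences were 0.34, 0.12 and 0.37, with a mean of 0.28. Without the first contralateral array the difference was -0.10. That fit has no block, and it leaves the low first ipsilateral value without its pair. A dimmer probe set, with a mean log2 level of 6.78, names Rps19 together with Rps19-ps3 and had differences of -0.17, -0.12 and -0.06.

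Diamond-Blackfan anemia is caused by loss of 1 copy of any of several ribosomal protein genes. Of 20 such genes listed, 11 were members with a probe set above the filter, and none was called. The other listed genes had no probe set of their own and are not counted here. The median log2 difference of the 11 was 0.19, all 11 mean differences were above 0, between 0.08 and 0.28, and 7 were positive in all 3 rounds. They lay within the spread of the other members, and the genes had been listed by name.

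Among the large subunit members, Rpl22 had the highest difference. It encodes a peripheral protein near the exit of the nascent chain, with a close paralog, Rpl22l1. Its log2 levels were 10.98, 10.86 and 11.48 on the ipsilateral and 10.33, 10.81 and 10.78 on the contralateral arrays. The sides did not overlap, yet in round 2 the difference was only 0.05, against 0.65 and 0.70 in rounds 1 and 3. The mean difference was 0.47 with a standard error of 0.40 (limma adjusted p = 0.99996), and with the block 0.19 (adjusted p = 0.361 in limma). Rpl22l1 had differences of 0.26, 0.22 and 0.15.

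Rpl37a, Rpl10a, Rpl13a and Rplp2 were the next large subunit genes with the same sign in all rounds. Rpl37a had log2 differences of 0.59, 0.26 and 0.28. Rpl10a, a protein of the mobile L1 stalk, had 0.52, 0.12 and 0.29. Its lowest ipsilateral value of 11.465 was only just above its highest contralateral value of 11.464. Rpl13a, which can leave the ribosome to silence inflammatory mRNAs, had log2 levels of 13.03, 12.97 and 13.14 against 12.67, 12.81 and 12.86. Its sides did not overlap, and its differences were 0.36, 0.17 and 0.28, with a mean of 0.27.

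The P stalk recruits elongation factors to the ribosome. Rplp2, a stalk protein, had log2 levels of 11.89, 12.14 and 11.95 against 11.46, 12.10 and 11.65, and Rplp0, the base of the stalk, had 11.30, 11.01 and 11.67 against 10.91, 11.04 and 11.45. In round 2 neither differed by more than 0.04. Their mean log2 differences were 0.26 and 0.19. Rplp1 was measured only by probe sets that name several genes.

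Rpl11, which with 5S rRNA and Rpl5 can bind and inhibit the p53 regulator Mdm2, had log2 levels of 11.36, 11.58 and 12.27 against 11.01, 11.47 and 12.09. Its levels differed more between rounds than between sides. The differences within rounds were 0.35, 0.11 and 0.19. The mean was 0.21. In fits without the block, which leave an array unpaired, it was -0.04 without the first contralateral and -0.05 without the third ipsilateral array. Round 3 was high on both sides.

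Rps4x, the X-linked small subunit gene, had the most even differences of the named members, 0.16, 0.17 and 0.22 in rounds 1 to 3. Their standard deviation was 0.03. Its levels were 12.43, 12.41 and 12.88 against 12.27, 12.24 and 12.66, so that a step between rounds was again larger than the step between sides.

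Of 3 paralogs of core proteins among the members above the filter, none was higher in all 3 rounds, against 17.6% of all genes. No difference from the other members was tested. Outside the rule, the paralog Rpl22l1 and the similarly named Rpl7l1 were higher in every round. Rpl22l1 had differences of 0.26, 0.22 and 0.15, and Rpl7l1 of 1.42, 0.29 and 0.33. Rps27l, a p53 target, had log2 levels of 9.06, 8.56 and 9.48 against 8.57, 8.75 and 8.69. Its differences of 0.49, -0.19 and 0.79 changed sign between rounds. Rpl39l, known from the testis, had 4.18, 5.28 and 5.10 against 4.37, 5.13 and 5.08, close to the filter level, and a mean difference of -0.01. Rps4l had 6.00, 7.65 and 7.11 against 5.86, 7.28 and 7.36, and a mean difference of 0.09. For Rpl39l and Rps4l the sign depended on which array was left out.

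Rps25 had the most negative difference of the members on a probe set of its own. It encodes a small subunit protein used in initiation on some viral internal entry sites. Its log2 levels were 5.54, 7.38 and 7.54 on the ipsilateral and 7.90, 8.12 and 7.35 on the contralateral arrays. The first ipsilateral value was far below the rest, and the sides overlapped. The differences were -2.36, -0.73 and 0.19, with a mean of -0.97, a standard error of 0.52 without and 0.47 with the block, and adjusted p of 0.99996 and 0.440 in limma. Without the first ipsilateral array the difference was -0.33. A brighter probe set, with a mean log2 level of 11.75, names Rps25 together with Gm6988 and Gm4963. It had differences of 0.46, -0.18 and 0.26 and a mean of 0.18, the opposite sign and near the median of the members.

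Rpl14 had the next largest spread over rounds on its own probe set, of mean log2 level 7.93, with differences of 0.76, -0.35 and 0.28. The mean of 0.23 became -0.16 without the first contralateral array. Brighter probe sets name it together with Rpl14-ps1, and the brightest of these, with a mean log2 level of 12.41, had differences of 0.27, 0.06 and 0.22 and a mean of 0.18.

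The difference varied with how bright a probe set was. Of the 98 probe sets, 92 were above the filter, and 47 of them were higher on the ipsilateral side in all 3 rounds while 1 was lower in all. In 47 probe sets with a mean log2 level of at least 11, the median difference was 0.20 and 33 were higher in all rounds. In 19 with a level of 9 to 11 it was 0.19, with 10 higher in all rounds. In 17 with a level of 6 to 9 it was 0.08, with 2, and in 9 dimmer ones -0.01, with 2. Restricted to the 34 members whose probe set had a level of at least 9, all mean differences were above 0, 23 were positive in all rounds and the median stayed at 0.19.

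Bright genes as a whole did not have a positive median difference, and the part of brightness in the ribosomal protein result was not tested. All 15346 genes had a median log2 difference of -0.01. The 1298 genes with a mean level of at least 10 had a median of -0.10, with 17.7% higher and 37.8% lower on the ipsilateral side in all 3 rounds. Without the ribosomal protein genes among them the median was -0.11. The medians of these 1265 other bright genes by round were -0.09, -0.11 and -0.10, while those of the ribosomal protein genes were 0.35, 0.07 and 0.22.

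Bright probe sets of the same gene mostly gave like differences. Of the 22 members with several probe sets above the filter, 14 had positive mean differences on all of them. Leaving aside the brightest probe set of each gene, the 50 others had a median difference of 0.19. It was 0.22 for 32 with a level of at least 9, of which 20 were higher in all rounds, and 0.01 for 18 dimmer ones, of which 2 were.

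The genes whose probe sets disagreed most were Rps6, Rps24, Rps10, Rpl22 and Rps20. Rps24 had 4 probe sets with levels between 11.30 and 12.18 and differences between 0.18 and 0.26, and a pair of dim probe sets with -0.11 and 0.58. Rps10 had 5 brighter probe sets with differences between 0.13 and 0.33 and a dim probe set, with a level of 5.503, with -0.34. Rpl22 had differences of 0.47 and 0.49 on its brighter probe sets and -0.14 on the third. Rps20 had 0.08 and 0.09 on its bright probe sets and -0.13 and -0.51 on the dimmer ones. In Rps24, Rps10, Rpl22 and Rps20 the deviating probe sets were the dimmer ones. Rps6 had only 2 of its own above the filter, with 0.59 and -0.15, so neither could be called the deviating one.

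Affymetrix marks by a suffix those probe sets that may match several transcripts. Ribosomal protein genes have many processed pseudogenes, so such probe sets are common here. The median difference was 0.20 for 38 probe sets with the suffix x_at, 0.21 for 26 with a_at, 0.18 for 3 with s_at and 0.12 for 25 with at alone. The last were also the dimmest, with a median log2 level of 6.99, against 11.76 for x_at and 11.34 for a_at, so the suffix groups also differed in brightness.

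**Figure D3:**
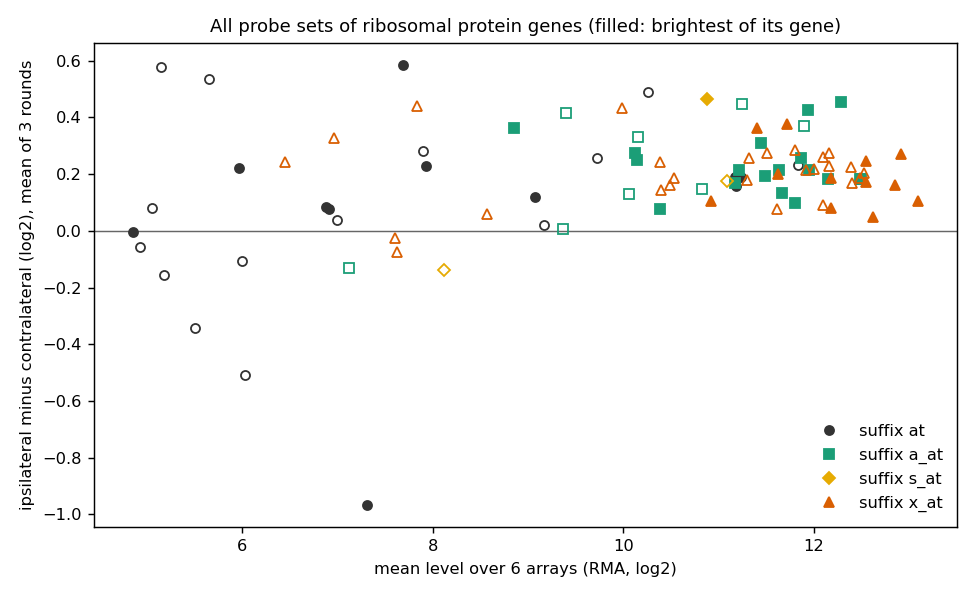
Mean difference over 3 rounds (vertical axis, log2) against mean level over 6 arrays (horizontal axis, log2 RMA values) for the 92 probe sets of ribosomal protein genes above the filter; color and shape give the suffix, filled symbols the brightest probe set of a gene. Above a level of 9 the points lie between 0.01 and 0.49, and below it they spread from -0.97 to 0.59.

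Outside the rule, 110 probe sets name a ribosomal protein gene together with other genes, mostly pseudogenes and predicted loci. Of these, 105 were above the filter, with a median log2 difference of 0.17. By round, this median came to 0.26, then 0.07, then 0.20. Of the 105, 63 were higher on the ipsilateral side in all 3 rounds and 6 were lower. Among the 6 were bright probe sets naming Rpl15, Rpl10, Rpl5 and Rpl13, with levels of 11.14, 10.86, 10.78 and 10.05. Their mean differences were -0.34, -0.24, -0.14 and -0.55. Still brighter probe sets naming the same genes had mean differences of 0.12, 0.01, 0.23 and 0.41. The 105 probe sets cover 15 of the members. For 8 of these members, Rpl12, Rpl14, Rpl37, Rpl39, Rps6, Rps16, Rps25 and Rps27, the shared probe set was the brighter. With the brightest probe set of either kind, an alternative added after the data had been seen, 44 members lay above the filter, 43 of them with a mean difference above 0 and 29 higher in all 3 rounds. The median stayed at 0.19. Ribosomal proteins whose symbols the rule does not take were also measured higher in every round. Rpsa, the laminin receptor of the small subunit, had log2 levels of 12.18, 12.22 and 12.51 against 11.73, 12.09 and 11.97. Its sides did not overlap. Fau had differences of 0.47, 0.26 and 0.07, and Rps3a1 of 0.16, 0.07 and 0.08.

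Other genes of the translation machinery were set beside these from lists of known factors. None of them was called, against 0.358% of all genes called higher in ipsilateral and 0 genes called higher in contralateral RGCs. Over all genes, 17.6% were higher and 20.2% lower on the ipsilateral side in all 3 rounds. The first list, called the elongation list here, held 14 genes whose mRNAs often carry the same pyrimidine start. They encode elongation factors, the initiation factors Eif3e, Eif3f, Eif3h and Eif4b, and other proteins such as Npm1. The median difference was 0.07, with 6 higher and 0 lower in all 3 rounds. Eef1d, a subunit of the exchange factor of elongation factor 1, had the highest, at 0.32, 0.47 and 0.70. Of 27 other initiation factor genes the median was -0.01, with 3 higher and 7 lower in all rounds. Eif4e, which binds the mRNA cap, had -0.31, -0.59 and -0.23, and Eif5 had 0.55, 0.56 and 0.24.

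Ribosome biogenesis genes gave a median of 0.11 over 53 genes, with 12 higher and 4 lower in all rounds, against 17.6% and 20.2% of all genes. Utp20, a processome component, had 0.55, 0.69 and 0.75, and Nhp2, a protein of H/ACA particles, had 2.03, 0.30 and 0.52. Of 16 genes of the mTOR pathway and the S6 kinases the median was -0.16, with 2 higher and 8 lower in all rounds. Eif4ebp2, a repressor of cap-dependent translation, had -0.71, -0.51 and -0.06. Mitochondrial ribosomal proteins, which serve a separate ribosome, had a median of 0.07 over 76 genes, with 18 higher and 5 lower in all rounds, and medians by round of 0.23, 0.00 and 0.01. The signs of the medians of the biogenesis, initiation, mTOR and mitochondrial lists changed when single arrays were left out.

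**Figure D4:**
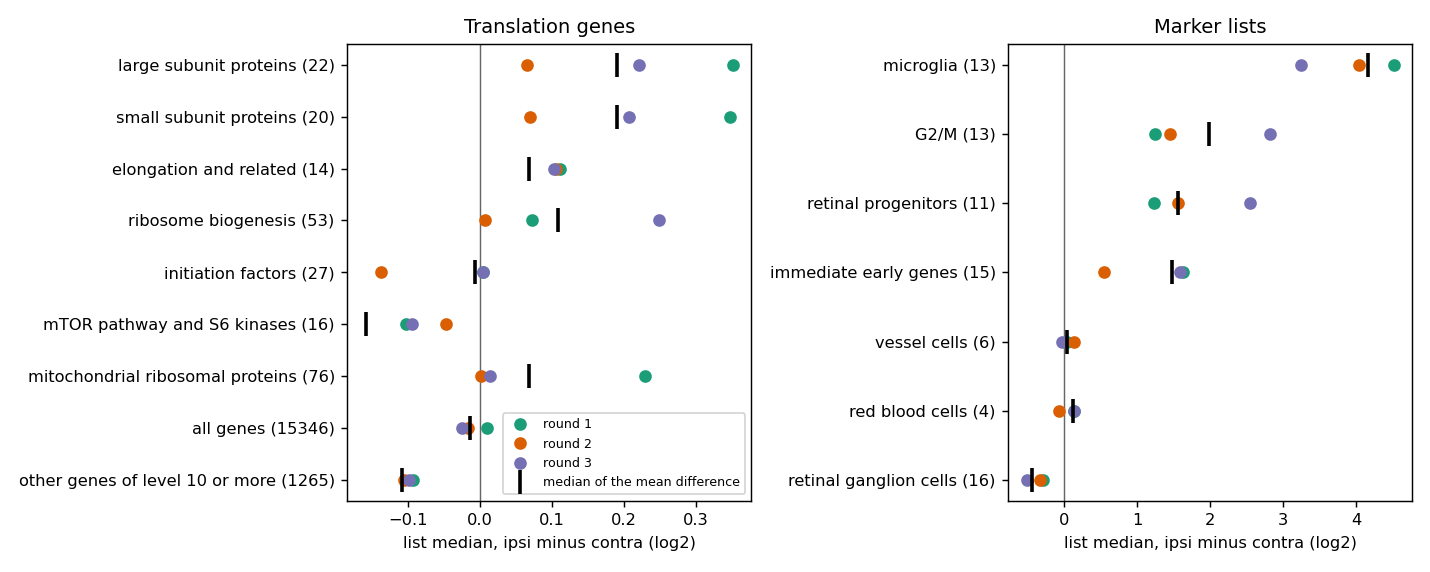
Median difference, ipsilateral minus contralateral (horizontal axis, log2), of each gene list in rounds 1, 2 and 3 (colored points) and the median of the mean difference (black bar), with the number of genes above the filter in brackets; the left and right panels have different scales. Both ribosomal subunits lie to the right of 0 in every round, other bright genes lie at about -0.1, and the microglia list lies beyond 3.

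Several marker lists of other cell types and states moved with the sides. For comparison, 17.6% of all genes were higher on the ipsilateral side in all rounds, and 0.358% were called higher there. Of 13 microglia genes above the filter, 12 were higher on the ipsilateral side in all rounds and 9 were called, and the median level of the list was 8.25 to 8.97 on the ipsilateral and 4.91 to 5.60 on the contralateral arrays. Their median differences were 4.51, 4.04 and 3.25 in rounds 1 to 3. Csf1r had levels of 10.37, 10.64 and 10.18 against 3.70, 5.36 and 5.08. Of 13 G2/M genes, 11 were higher in all rounds and 1 was called, with list medians of 7.46 to 9.42 against 6.35 to 6.63 and differences of 1.24, 1.45 and 2.82. Mki67 had 10.76, 11.22 and 12.41 against 9.30, 9.05 and 8.66.

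Of 11 progenitor genes, 9 were higher in all rounds and 3 were called, with list medians of 8.35 to 9.57 against 7.003 to 7.35. Of 15 immediate early genes, 13 were higher in all rounds and 2 were called, with list medians of 8.14 to 8.86 against 5.78 to 7.47. All 16 RGC markers above the filter were lower on the ipsilateral side in all rounds. This held for 20.2% of all genes and 37.8% of those with a mean level of at least 10. No RGC marker was called, and 0 of all 15346 genes were called in that direction. The list medians of the RGC markers were 11.06 to 11.34 against 11.34 to 11.89. The 4 red blood cell genes above the filter were dim on all arrays, and Hba-a1 had 4.81, 5.86 and 5.14 against 4.32, 5.53 and 5.26. With the round as a block, 8 microglia genes, 0 G2/M genes, 0 progenitor genes and 4 immediate early genes were called, against 0.319% of all genes. The list medians by round were 1.23, 1.56 and 2.55 for the progenitor and 1.62, 0.55 and 1.59 for the immediate early genes. Those of the ribosomal protein genes were 0.35, 0.07 and 0.22. The part of these markers in the ribosomal protein result was not tested.

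As a measure of RNA quality, the 3′ minus 5′ difference of the Gapdh control probe sets was 2.25, 2.32 and 2.58 on the ipsilateral and 2.25, 2.13 and 2.32 on the contralateral arrays. That of the Actb control probe sets was -0.24, -0.14 and 0.04 against -0.32, -0.18 and 0.11. The part of RNA quality in the ribosomal protein result was not tested.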

How the data were processed

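Expression was measured in 3 ipsilateral and 3 contralateral RGC samples on Affymetrix mouse expression arrays. The authors deposited log2 values made by RMA in Affymetrix Expression Console 1.1, per the labels. RMA values are relative to the arrays normalized together. The array medians, from 5.80 to 6.70, still differed between rounds, and whether all 6 arrays were normalized together is not given in the sources used here. The number of arrays limits the precision.

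Of 45101 probe sets, 64 controls were left out and 36029 with a mean log2 level at or above the 20th percentile (4.74) were kept. Gene names came from the platform annotation, updated through Entrez identifiers (34741 matched, 204 not). Of the non-control probe sets 34945 named 1 gene, 932 several and 9160 none. Each gene was taken at its brightest probe set.

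The comparison of sides used lmFit and eBayes of limma (version 3.58.1, under R 4.3.3) with no block and adjusted p-values by Benjamini and Hochberg over the 36029 probe sets. Calls needed 2-fold and adjusted p under 0.05, after the authors' thresholds. The code was tested on simulated data. Replicate numbers stand for rounds of sorting: deviations from the group means correlated at 0.51, 0.54 and 0.61 for arrays of the same number and at -0.35 to -0.21 otherwise, so a fit with the round as a block is given where it matters. Samples of a side came from separate rounds. Alternatives were the block, the filter, normalization, centring, moderation, array weights, the choice of probe set, with or without those that name several genes, and leaving out arrays.

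The members, the gene lists and the motifs were chosen with earlier results of these data known. Named members are the up to 10 with the largest mean difference and the same sign in all rounds, those in the stalk, Mdm2 and paralog lists, Rps6, Rps19 and Rps4x, the 5 whose probe sets differed most and the 3 with the largest spread over rounds, and of other lists up to 4 genes with the largest difference and chosen markers. Further genes, such as Rpsa, Fau, Rps3a1 and Rpl27, were named after their values were seen. Start sequences came from RefSeq, GRCm38.p6, where 39 of 45 members matched.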

Additional observations from a re-analysis of the deposited data

How the results depend on the processing

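No ribosomal protein gene was called in either direction under any alternative run. The median log2 difference of 0.19 stayed positive under all of them, from 0.15 (arrays centred on their medians) to 0.22 (quantile normalization) without leaving out arrays. The replicate block leaves each difference as it is. Without single arrays it ranged from 0.035 (without the first contralateral array) to 0.31. For the large subunit the range was 0.019 to 0.31 and for the small subunit 0.042 to 0.31. Fits without a single array have no block and leave its partner unpaired, so levels that differ between rounds enter the difference. With the replicate block and without 1 round the median over the members ranged from 0.14 to 0.26. The number of members higher in ipsilateral RGCs at an unadjusted limma p under 0.05 was 0 without the block, 2 with the replicate block, 1 under quantile normalization, 1 with a trended and robust prior, 3 with array weights, 2 without moderation and 5 without moderation but with the replicate block, and with the replicate block it ranged from 1 to 4 when 1 round was left out. The number higher in contralateral RGCs was 1 under quantile normalization and under median centring, and 0 to 1 when arrays or rounds were left out.

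The medians of the other lists were small and moved easily. The elongation list, at 0.07, gave 0.11 under quantile normalization, 0.023 under median centring, 0.095 with array weights, 0.12 without the suffixes s_at and x_at, 0.11 as the mean of all probe sets, 0.020 to 0.21 without single arrays and 0.056, 0.062 and 0.076 with the replicate block and without rounds 1, 2 and 3. The mTOR list, at -0.16, gave -0.12 under quantile normalization, -0.20 under median centring, -0.13 with array weights, -0.11 as the mean of all probe sets, -0.33 to 0.10 without single arrays and -0.16 to -0.12 without a round. Without single arrays the initiation list ranged from -0.30 to 0.18, the biogenesis list from -0.14 to 0.30, the mitochondrial list from -0.14 to 0.27 and the ribosomal proteins outside the rule from 0.078 to 0.43.

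Some single members changed sign. Leaving out single arrays, Rpl11 ranged from -0.053 to 0.50, Rpl14 from -0.16 to 0.45 and Rpl39l from -0.25 to 0.33. Rps19 ranged from -0.10 to 0.62, Rps24 from -0.0018 to 0.33 and Rps4l from -0.40 to 0.55. Of these, Rpl11, Rps19 and Rps24 had positive differences in all 3 rounds, and the fits without single arrays do not keep the pairs. Leaving out a round with the replicate block, Rpl14 ranged from -0.038 to 0.52, Rpl39l from -0.087 to 0.089 and Rps4l from -0.057 to 0.25. Array weights gave 0.020 for Rpl39l and -0.18 for Rps4l. Without the suffixes s_at and x_at, Rps20 was -0.13 and Rps24 -0.11, both on dimmer probe sets, and the mean of all probe sets of Rps20 was -0.12. With probe sets that name several genes included, Rps25 was 0.18 in place of -0.97 and Rps6 0.25 in place of 0.59. The causes were not tested.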
